A study of Mus musculus with 4 samples.

Results

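The angiopoietin and Tie receptor genes were examined in endothelial cells (ECs) of the mouse lung after unilateral pneumonectomy (PNX), the surgical removal of the left lung that is followed by growth of the right lobes. They comprised 8 genes chosen by symbol, Angpt1, Angpt2, Tek, Tie1, Ptprb, Angptl2, Angptl4 and Svep1, out of 24063 gene symbols in the count tables, and all 8 passed the filter on low counts that left 16208 genes for testing. ECs had been pulled from lungs of C57BL6 mice (C57BL6J in the study's methods) with CD31 antibody and magnetic beads, either 7 days after PNX or after a sham operation, in which the chest was opened and both lungs were left in place. All mice were 8 weeks old, and the labels name no transgene or drug. Each group had 2 libraries of polyadenylated RNA, and each library pooled the cells of 2 mice, so an SD given here is the spread between 2 pools.

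Angiopoietins are secreted ligands of the endothelial receptor tyrosine kinase Tie2, which is encoded by Tek. Angpt1, made mostly by mural and other perivascular cells, activates Tie2 and keeps vessels quiescent and tight, while Angpt2, stored in and released by ECs, acts as a context-dependent antagonist. Tie1 is a related receptor with no established angiopoietin ligand of its own that modulates Tie2, and Ptprb encodes VE-PTP, an endothelial phosphatase that removes phosphate from Tie2. Active Tie2 signals through PI3 kinase and AKT, which keep the transcription factor FOXO1 out of the nucleus. In the lung this axis is known for holding the capillary barrier closed.

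The libraries held between 41367437 and 50952868 counts when 1 transcript stood for each symbol, and the 8 genes took from 0.329% to 0.454% of them. The mice were described as male, but counts over 4 genes of the Y chromosome (Ddx3y, Kdm5d, Uty and Eif2s3y) were 0 in every library and Xist had between 29890 and 36875, so all 4 libraries went against that label and no result can be given without them. Endothelial markers were abundant, and Pecam1, which encodes CD31, had 90948 ± 240 (SD, n = 2) normalized counts in sham libraries against 90402 ± 294 (SD, n = 2) in post-PNX libraries. RNA of other cells was present as well, since Sftpc, the surfactant gene of alveolar type 2 cells, had 171018 ± 365 (SD, n = 2) in sham and 111030 ± 532 (SD, n = 2) after PNX. A normalized count is a count brought to the average library size with edgeR's TMM factors.

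All 8 genes differed between post-PNX and sham libraries at an adjusted p under 0.01, 5 of them lower and 3 higher after PNX. The p-values came from quasi-likelihood F tests in edgeR and were adjusted over every gene tested by the Benjamini-Hochberg procedure. This has to be read against the share of all genes that pass, which was 57.1% in either direction, 27.8% lower and 29.3% higher. Among the 8117 genes that averaged 1000 normalized counts or more, as all 8 did, 69.6% passed, 36.7% lower and 33.0% higher. No member reached a log2 fold change beyond 1 as well, the threshold of the study's methods, which 7.56% of all genes tested and 2.59% of the abundant ones passed. The sizes of the changes ran from a fall of 39.6% in Ptprb to a rise of 69.0% in Angptl4. Lack of overlap between the libraries of the groups, where mentioned below, is a description. The share of all genes without overlap was not counted. In bulk samples of this kind, fewer cells of a type and less RNA per cell cannot be told apart.

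**Figure D1:**
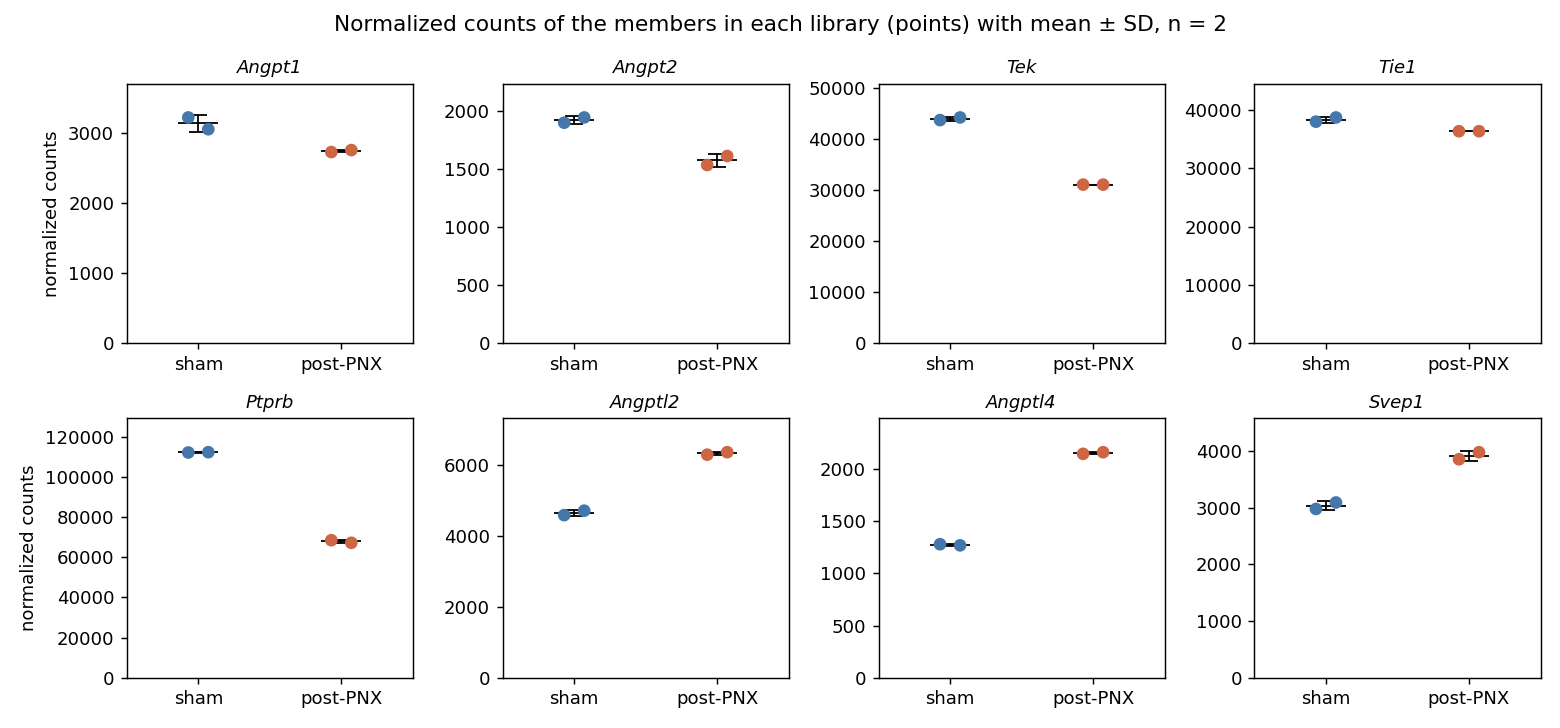
Normalized counts (y axis from 0) of each member in the 2 sham and 2 post-PNX libraries, with 1 point per library and the mean ± SD of each group in black. Tek, Ptprb, Angptl2 and Angptl4 show the widest gaps between groups, and the Tie1 points lie close together, from 36405 to 38775.

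The call of 3 members depended on how libraries were scaled. The 12 endothelial marker genes (Pecam1, Cdh5, Kdr, Flt1, Erg, Emcn, Cldn5, Esam, Egfl7, Ramp2, Robo4 and Eng) were themselves mostly lower after PNX, with a median log2 fold change of -0.29, and 10 of them were lower and 1 was higher at an adjusted p under 0.01. Scaling the libraries to these 12 genes in place of TMM moved the median log2 fold change of all genes tested from 0.00 to 0.28. On that scale 68.7% of all genes passed the adjusted p, 88.8% of these higher. Tek and Ptprb stayed lower under both scalings, and Angptl2, Angptl4 and Svep1 stayed higher. Tie1 turned from lower to higher. Angpt1 changed sign and Angpt2 kept it, and neither passed an adjusted p of 0.01 on that scale. Changes are given below relative to TMM, with the value on the endothelial scale beside them where the call changes.

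**Figure D2:**
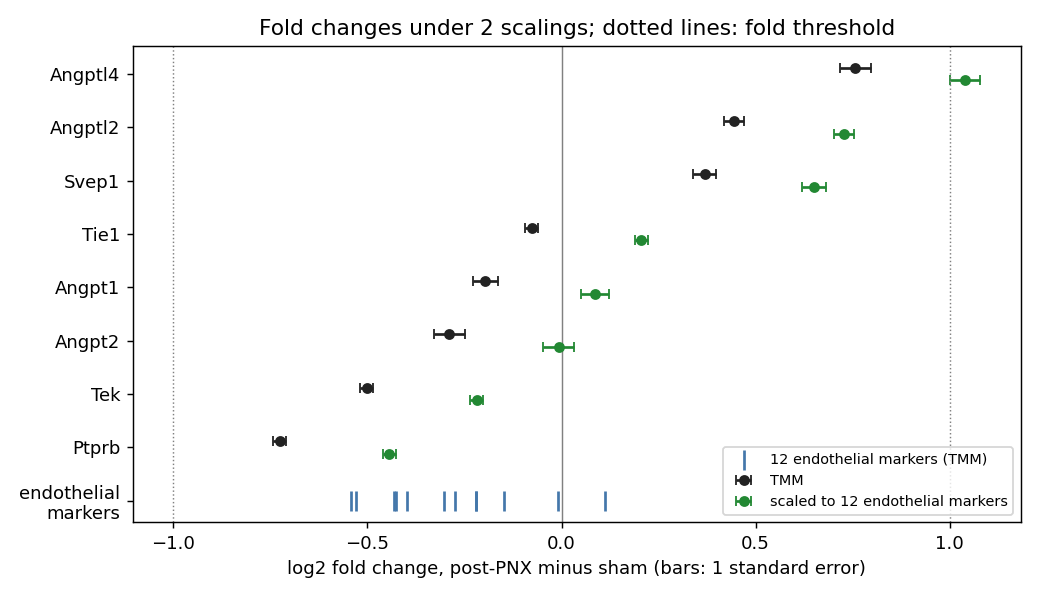
Log2 fold change (post-PNX minus sham, x axis) of each member with TMM normalization (black) and with libraries scaled to 12 endothelial markers (green), bars showing 1 standard error, and the markers' own TMM values as blue ticks in the lowest row. Under TMM, Ptprb lies below all 12 markers and Tek below 10 of them, Tie1 lies above 10, and Angptl2, Angptl4 and Svep1 lie above all 12; dotted lines mark the fold threshold of 1 in either direction.

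Tek, which encodes Tie2 and lies on chromosome 4 from 94739086 to 94874976 (mm10), was the receptor that changed more. Its normalized counts were 43784 and 44302 in the sham libraries and 31104 in both post-PNX libraries. Both libraries after PNX thus lay well under both sham libraries. The means of 44043 ± 366 (SD, n = 2) and 31104 ± 0.214 (SD, n = 2) gave a fall of 29.4%, a log2 fold change of -0.50 (edgeR adjusted p = 4.5e-34, standard error 0.017). Scaled to the endothelial markers, the log2 fold change was -0.22 (adjusted p = 1.5e-10). Only 2 of the 12 endothelial markers had a lower log2 fold change than Tek, Flt1 (-0.53) and Eng (-0.54).

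Tie1, on chromosome 4 from 118471191 to 118489849, had 38048 and 38775 normalized counts in sham libraries and 36405 and 36410 in post-PNX libraries. The groups did not overlap, but the distance between them was small. From 38411 ± 514 (SD, n = 2) to 36407 ± 3.68 (SD, n = 2), Tie1 fell by 5.21% with TMM (log2 fold change -0.08, edgeR adjusted p = 9.3e-05, standard error 0.017), while on the endothelial scale it was higher, with a log2 fold change of 0.21 (adjusted p = 4.4e-10).

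The receptors therefore moved apart, and this did not depend on scaling, since a ratio within a library is free of it. The ratio of Tie1 to Tek in FPKM (fragments per kilobase of transcript length and per total counted, the authors' length-corrected unit) was 1.05 and 1.06 in the sham libraries and 1.42 in both post-PNX libraries. Sham libraries had nearly equal levels of both receptors, and post-PNX libraries had more Tie1 than Tek. The log2 ratio rose by 0.42 from 0.08 ± 0.007 to 0.50 ± 0.00016 (SD, n = 2), far more than the spread between libraries. An SD of 2 values can be small by coincidence, so those of Tek and of this ratio after PNX do not measure precision. An exact two-sided permutation test of 2 against 2 libraries gave p = 0.333, the smallest it can give.

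Ptprb, the phosphatase that counteracts Tie2, is on chromosome 10 from 116275502 to 116389538 and had the largest fall of the 8 genes. It had 112329 and 112476 normalized counts in the sham libraries against 68571 and 67289 after PNX. The sham libraries differed from each other far less than from either post-PNX library. The means were 112402 ± 104 (SD, n = 2) and 67930 ± 907 (SD, n = 2), a fall of 39.6% (log2 fold change -0.73, edgeR adjusted p = 1.9e-44, standard error 0.016), and -0.44 on the endothelial scale (adjusted p = 2.3e-16). None of the 12 endothelial markers fell as far, and 4.40% of all genes tested had a lower log2 fold change. Within a library, the FPKM ratio of Ptprb to Tek was 1.01 and 1.00 in sham and 0.870 and 0.854 after PNX, so that the phosphatase fell further than its substrate receptor. This ratio also gave p = 0.333 in the exact permutation test, the smallest possible.

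**Figure D3:**
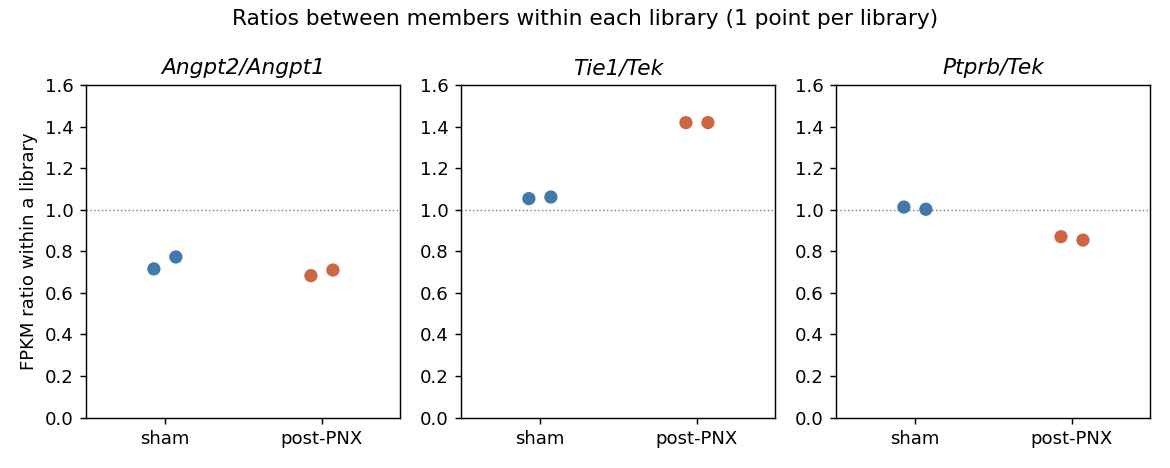
Ratio of FPKM within each library (y axis, linear from 0, 1 point per library) of Angpt2 to Angpt1, Tie1 to Tek and Ptprb to Tek, with a dotted line at 1. The Tie1 to Tek ratio goes from 1.05 and 1.06 in sham to 1.42 after PNX and the Ptprb to Tek ratio falls below 1, while the Angpt2 to Angpt1 ratios of the groups lie close together.

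The tables list 3 RefSeq transcripts of Tek, and a read was counted for each transcript it overlapped. NM_013690, the longest, was used, and NM_001290551 lacks exon 4, a coding exon of 153 bases or 51 codons at chr4:94799127-94799279 on the plus strand of GRCm38 (mm10). The exon is shown because it is the part of Tek by which the counts of the transcripts differ. It is printed 5′ to 3′ in capitals from the GENCODE transcript sequence, with 15 bases of the exons on either side in lower case.
Tek exon 4: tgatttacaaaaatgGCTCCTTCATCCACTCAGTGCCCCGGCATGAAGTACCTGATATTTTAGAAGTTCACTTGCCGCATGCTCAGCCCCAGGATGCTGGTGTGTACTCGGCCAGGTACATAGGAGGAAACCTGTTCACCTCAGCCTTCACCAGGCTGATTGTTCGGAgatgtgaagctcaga
Reads counted for the longer but not for the shorter transcript numbered 136 and 141 in the sham libraries and 75 and 65 after PNX. Per 10000 counts of Tek they came to 28.1 and 32.4 in sham and 23.7 and 23.3 after PNX. These few reads show that the exon was present in Tek RNA of both groups, and its share was not tested. With counts summed over transcripts the log2 fold change of Tek was -0.50, as with the single transcript.

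TEAD factors, the DNA-binding partners of YAP1 with which the study is concerned, bind the M-CAT motif, CATTCC on either strand (GGAATG as its reverse complement). The RefSeq promoter table of GRCm38.p6 held windows of 250 bases before the start site for 4 of the 8 genes, Tek, Tie1, Angptl2 and Svep1, and both strands were searched for these exact letters, which occur in 12.6% of its 32851 windows. The table takes a start of Tek that lies downstream of the gene start given above, so that 203 of the 250 bases of its window are inside the gene, and the window is not read here as the Tek promoter. Of the 3 others, Svep1 held 1 match, which begins 239 bases before its start site, and these letters were not in the windows of Tie1 and Angptl2, the latter with 10 bases inside the gene. The Svep1 window (chr4:58206597-58206846, minus strand) is shown 5′ to 3′ with the match in capitals, as the single one with a match.
Svep1 promoter: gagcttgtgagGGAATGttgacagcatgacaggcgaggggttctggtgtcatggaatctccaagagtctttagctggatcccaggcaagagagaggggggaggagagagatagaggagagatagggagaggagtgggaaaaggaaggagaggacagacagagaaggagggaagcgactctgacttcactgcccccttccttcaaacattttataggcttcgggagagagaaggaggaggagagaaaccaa
A match describes letters in a window and is no evidence of binding, and other forms of the motif were not searched.

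Of the ligands, Angpt1 is on chromosome 15 from 42424667 to 42676977. It had 3222 and 3053 normalized counts in sham libraries and 2727 and 2756 in post-PNX libraries, without overlap. The means of 3137 ± 119 (SD, n = 2) and 2741 ± 20.2 (SD, n = 2) gave a log2 fold change of -0.20 with TMM (edgeR adjusted p = 4.5e-07, standard error 0.033) and of 0.086 on the endothelial scale (adjusted p = 0.0312), short of the threshold and of the other sign. Its 2 RefSeq transcripts, which differ by 3 bases in length, had identical counts in every library.

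Angpt2, on chromosome 8 from 18690263 to 18741562, had 1901 and 1946 normalized counts in sham libraries against 1536 and 1613 after PNX. Here, too, both post-PNX libraries were under both sham libraries. From 1923 ± 32.1 (SD, n = 2) to 1575 ± 54.8 (SD, n = 2) it was 18.2% lower with TMM (log2 fold change -0.29, edgeR adjusted p = 5.8e-09, standard error 0.040), whereas on the endothelial scale the log2 fold change was -0.01 (adjusted p = 0.879). Neither ligand passed as lower under both scalings, whereas Tek and Ptprb did. The ratio of Angpt2 to Angpt1 in FPKM was 0.715 and 0.773 in sham and 0.683 and 0.710 after PNX. Its log2 value was lower after PNX by 0.09 on average, with SDs of 0.079 in sham and 0.040 after PNX (exact permutation p = 0.333, the smallest possible). The difference was -0.04 without the second sham library and -0.15 without the first, so a shift in the balance of the ligands was not resolved by these libraries.

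The angiopoietin-like members and the matrix ligand went the other way. Angptl4, a secreted inhibitor of lipoprotein lipase that responds to hypoxia and to PPAR activators, is on chromosome 17 from 33774900 to 33781575. It had 1280.1 and 1269 normalized counts in sham libraries and 2147 and 2163 after PNX, the widest relative gap of the 3 rising members. The means of 1275 ± 7.74 (SD, n = 2) and 2155 ± 11.0 (SD, n = 2) gave a log2 fold change of 0.76 (edgeR adjusted p = 9.5e-25, standard error 0.040). On the endothelial scale it was 1.04 (adjusted p = 5.3e-16), which made Angptl4 the single member beyond the fold threshold there.

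Angptl2, a secreted angiopoietin-like protein linked to inflammation, is on chromosome 2 from 33215951 to 33247725. Normalized counts were 4576 and 4701 in sham libraries and 6278 and 6348 after PNX. Both post-PNX libraries lay above both sham libraries. It rose from 4639 ± 88.8 (SD, n = 2) to 6313 ± 49.2 (SD, n = 2), by 36.1% (log2 fold change 0.44, edgeR adjusted p = 6.4e-23, standard error 0.026).

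Svep1, on chromosome 4 from 58042796 to 58206596, encodes polydom, a large extracellular matrix protein needed for lymphatic development. It had 2981 and 3096 normalized counts in sham libraries and 3859.9 and 3985 after PNX, again without overlap. The rise from 3039 ± 80.9 (SD, n = 2) to 3922 ± 88.1 (SD, n = 2) was one of 29.1% (log2 fold change 0.37, edgeR adjusted p = 2.7e-16, standard error 0.031).

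Set side by side per length, the receptors and the phosphatase formed a tier of their own. In sham libraries Tie1 had 135 ± 1.85 FPKM, Ptprb 128 ± 0.166 and Tek 127 ± 1.10 (SD, n = 2), each above 98.2% to 98.3% of the genes tested, and Ptprb and Tek did not differ beyond their spread. Angptl2 followed with 18.3 ± 0.357, then Angpt1 with 9.87 ± 0.371, Angptl4 with 9.10 ± 0.052, Angpt2 with 7.34 ± 0.125 and Svep1 with 3.66 ± 0.099 FPKM. After PNX the near-equal level of the 3 endothelial proteins' RNAs was gone. Tie1 stood at 128 ± 0.215 FPKM, Tek at 90.4 ± 0.161 and Ptprb at 77.9 ± 1.18 (SD, n = 2). Angptl4, at 15.5 ± 0.052 FPKM, had passed Angpt1, at 8.68 ± 0.049.

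Other genes of the pathway were taken from lists made without regard to their change but with earlier results of these data known. Their counts are to be read against the 57.1% of all genes tested that passed with TMM (29.3% higher, 27.8% lower) and the 68.7% that passed on the endothelial scale, most of them higher. Of the other angiopoietin and angiopoietin-like genes, Angpt4 and Angptl1 were too low to test and Angptl8 was not analysed here. Angptl7, a secreted family member, rose from 64.3 and 82.6 normalized counts in sham libraries to 1218 and 1196 after PNX, a 16.5-fold change (log2 fold change 4.05, edgeR adjusted p = 4.6e-44, standard error 0.089). Angptl6 had 256 ± 21.4 normalized counts in sham and 254 ± 21.0 after PNX (SD, n = 2) and did not pass under either scaling. The change of Angptl7 was thus larger than that of any of the 8 members, among which it was not counted.

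Of 20 genes of Tie2 signalling, 5 were higher and 10 lower at an adjusted p under 0.01 with TMM, against 15 higher and 3 lower on the endothelial scale, so the list has no direction that holds under both. Its median log2 fold change was -0.08 with TMM, beside 0.00 over all genes tested. Dok2, which encodes an adaptor docking on Tie2 and is also made by leukocytes, was the single gene past the fold threshold, from 419 ± 3.78 to 966 ± 5.08 (SD, n = 2) normalized counts (log2 fold change 1.21). Grb14, another adaptor, had the lowest log2 fold change (-0.72). Akt1, the most abundant of the 20, was at 0.15. Foxo1 and Nos3, which encodes endothelial nitric oxide synthase, were chosen after their values were seen. Foxo1 went from 4993 ± 42.4 to 3898 ± 21.1 normalized counts (log2 fold change -0.36, and -0.075 with an adjusted p of 0.0205 on the endothelial scale) and Nos3 from 3837 ± 60.0 to 4674 ± 99.5 (0.28, SD, n = 2).

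Of 11 genes whose proteins partner with or shed Tie receptors, 9 were higher and 2 lower (all 11, beside 57.1% of all genes), with a median of 0.22, and on the endothelial scale 10 were higher and 1 lower. Mmp14, a membrane-bound matrix metalloproteinase, rose from 3208 ± 0.724 to 9878 ± 70.2 (SD, n = 2) normalized counts (log2 fold change 1.62) and was the single gene past the fold threshold. The lower genes were Kdr, the VEGF receptor (-0.40), and Cdh5, which encodes VE-cadherin and was the most abundant of the list (-0.22 with TMM, 0.06 on the endothelial scale). Kdr and Cdh5 are among the 12 genes that set the endothelial scale, so their values on it are partly fixed by construction. Among 14 FOXO1 target genes 3 were higher and 5 lower, the same share as the 57.1% of all genes, with a median of -0.08. On the endothelial scale 8 were higher and 3 lower, with a median of 0.20, so this list has no direction that holds on both. Txnip, the most abundant, fell most (-0.85) and Bcl6 rose most (0.48).

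Transcription factors that act on Tek or Angpt2 were mostly lower with TMM, 11 of 14 with a median of -0.22, and 3 were higher. Of all genes tested 27.8% were lower, and of abundant genes 36.7%. On the endothelial scale 4 of the 14 were lower and 6 higher. Erg, which is on this list, is among the 12 genes that set that scale. Gata2 fell most (-0.63), Epas1, the hypoxia-inducible factor of ECs, fell from 260645 ± 1074 to 172045 ± 2956 normalized counts (-0.60, SD, n = 2), and Hif1a rose most (0.42). These directions held on both scales. Yap1 and Tead1 were named because the study links them to Tie2 expression in pressurized human pulmonary arterial ECs, another system. Their log2 fold changes were -0.26 and -0.24 with TMM, past the adjusted p but short of the fold threshold. On the endothelial scale they were 0.02 and 0.04, where neither passed the adjusted p. The study, which applied that fold threshold, reported that Yap1 was not significantly changed in its RNA sequencing.

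In the lipoprotein lipase axis on which Angptl4 acts, 3 of 12 genes were higher and 4 lower, a share near the 57.1% of all genes, with a median of -0.01. On the endothelial scale 6 were higher and 3 lower, with a median of 0.27. Lpl itself, named after its value was seen, had 17771 ± 215 normalized counts in sham and 17602 ± 102 after PNX (SD, n = 2, edgeR adjusted p = 0.536), while on the endothelial scale its log2 fold change was 0.27 and passed. Fabp4, a fatty acid carrier, rose (log2 fold change 1.19), while Hilpda, an intracellular lipase inhibitor, fell most (-0.73) and the fatty acid transporter Cd36, the most abundant gene of the list, fell as well (-0.59). Of 7 receptor genes reported for Angptl2 and Svep1, 5 were higher and 1 lower, against 57.1% of all genes and 69.6% of abundant genes passing in either direction, with a median of 0.33. Pirb, a leukocyte receptor, had the largest rise (0.82), Itgb1 was the most abundant (0.33), and Itga4 was the lower gene (-0.46). Itga9, which encodes the integrin subunit that binds polydom and was named for that reason, was at 0.33.

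**Figure D4:**
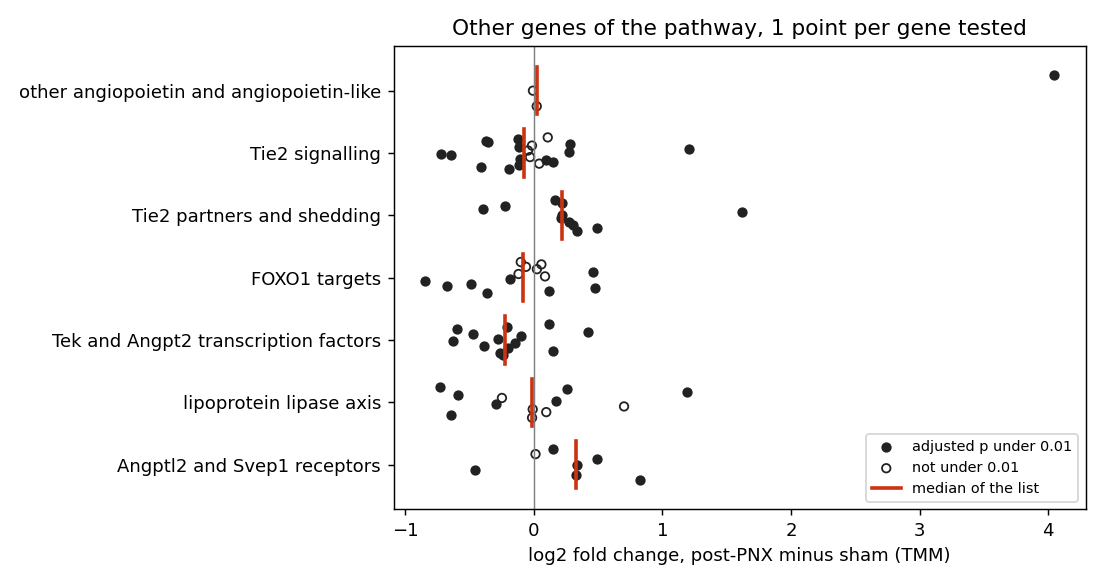
Log2 fold change (post-PNX minus sham, TMM, x axis) of each gene tested in the 7 pathway lists, filled where the adjusted p is under 0.01 and open where not, with the median of each list as a red line. Angptl7, at 4.05, lies apart from every other gene, and the list medians lie between -0.22 and 0.33.

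Markers of endothelial subtypes and of other cells were counted in the same way, and their changes are with TMM unless stated. Their counts are to be read against the 29.3% of all genes tested that were higher and the 27.8% that were lower. Among genes averaging 1000 normalized counts or more these shares were 33.0% and 36.7%. On the endothelial list itself Emcn had the single rise (0.11), Eng the largest fall (-0.54) and Cdh5 the most counts. All 5 markers of general capillary ECs were lower, with a median log2 fold change of -0.45, and their summed level was 167133 to 167664 normalized counts in sham and 128799 to 130455 after PNX. On the endothelial scale 3 of them were lower and 1 higher. Plvap fell most (-0.65), and Cd93, the most abundant, was at -0.14 but of the other sign on the endothelial scale. The other subtype lists did not go one way. Among aerocyte markers 3 were higher and 3 lower (Car4 0.24, Ednrb -0.58, and Prx, the most abundant, 0.13), with a median of -0.13. Among arterial markers 3 were higher and 3 lower (Dkk2 1.13, Gja4 0.61, and Efnb2, also the most abundant, -0.63), with a median of 0.04. Among venous markers 4 were higher and 2 lower (Ackr1 1.54, Vcam1 0.44), with a median of 0.20, and the lower genes there, Ephb4 (-0.15) and the most abundant, Vwf (-0.07), changed sign on the endothelial scale. Tip cell markers were lower in 6 of 8 and higher in 2, with a median of -0.28 that was 0.00 on the endothelial scale. Esm1 fell most (-2.14), Nid2 rose most (1.03), and Cxcr4, the most abundant, was at -0.22 and of the other sign on the endothelial scale.

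Lymphatic endothelial markers were higher in 2 of the 6 tested, with the largest rise in Prox1 (0.43), and lower in 1, Lyve1 (-1.14). Lyve1 made up 63.8% of their summed level in sham, and the other markers together had 25310 to 25445 normalized counts in sham and 26011 to 26617 after PNX.

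On the list of pericytes, the cells that are a main source of Angpt1, 7 of 8 genes were higher and 0 lower, with a median of 0.35 and a summed level of 13267 to 13415 in sham and 17785 to 17923 after PNX. Rgs5 (2.09) and Cspg4 (1.03) were past the fold threshold, and Pdgfrb, the most abundant, was at 0.27. Smooth muscle markers were higher in 5 of 7 and lower in 0, from 14645 to 14801 in sham to 19670 to 19681 after PNX, with Actg2 at 0.73 and Tagln, the most abundant, at 0.46. The log2 fold change of Angpt1 was -0.20 with TMM and 0.086 on the endothelial scale, where it did not pass. The part of these cells in it was not tested. Platelet and megakaryocyte markers, from cells that carry Angpt1, were higher in 5 of 7 and lower in 0, with sums of 4144 to 4320 in sham and 5812 to 5819 after PNX. Pf4 was past the fold threshold (1.34), and Itgb3, the most abundant, was at 0.27.

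Fibroblast markers, from cells that make Svep1 and Angptl2, were higher in 7 of 10 genes and lower in 2, with a median of 0.67, and their sum was 85757 to 87143 in sham and 182742 to 183962 after PNX. Lum (4.26), Col1a1 (2.34), Dcn (2.30) and Col1a2 (2.08), the most abundant, were past the fold threshold, while Pdgfra was at -0.23 with TMM and 0.05 on the endothelial scale. Without Col1a2 the sum was 72011 to 72817 in sham and 123755 to 124260 after PNX. Col13a1 was at -0.14 with TMM and 0.15 on the endothelial scale. Tcf21 was at 0.02 (edgeR adjusted p = 0.677) and Npnt at 0.07 with TMM. Col13a1, Tcf21 and Npnt were named after their values were seen. Mesothelial markers were higher in 6 of 6, with a sum of 11529 to 11667 in sham and 23942 to 24355 after PNX. Wt1 (2.68), Msln (1.97), Upk3b (1.08) and Lrrn4 (1.03) were past the fold threshold there, and Msln was the most abundant.

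Adipocyte markers, relevant to Angptl4, were higher in 4 of the 5 tested and lower in 1, with a median of 2.60. The lower gene, Cidec (-0.21, of the other sign on the endothelial scale), made up 88.5% of their summed level in sham, and the other markers together had 137 to 139.7 normalized counts in sham and 720.3 to 780 after PNX. Adipoq, Cfd and Plin1 were past the fold threshold. The defining gene Adipoq was near 0 in sham, at 0.963 ± 0.080 normalized counts, and 92.6 ± 15.6 after PNX (SD, n = 2), and Cfd had 7.64 ± 0.720 in sham and 427 ± 30.5 after PNX.

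Macrophage markers were higher in 7 of 7, from 20070 to 20341 in sham to 47714 to 47920 after PNX, with C1qb (2.98), C1qc (2.96), C1qa (2.82) and Cd163 (2.49) past the fold threshold and Mrc1, the most abundant, at 0.70. Pan-leukocyte markers were higher in 3 of 5 and lower in 1, at 37195 to 37354 in sham and 39287 to 39915 after PNX. Arhgdib had the largest rise (0.33) and Laptm5 the most counts (0.16), and the lower gene, Coro1a (-0.14), changed sign on the endothelial scale. Monocyte and neutrophil markers were higher in 5 of 6 and lower in 0 (Ccr2 0.86, and S100a9, the most abundant, 0.16). Mast cell markers were higher in 4 of 6 and lower in 1, with Tpsb2 (5.80), Cma1 (3.34) and Mcpt4 (2.21) past the fold threshold and Cpa3, the most abundant, at 0.63. B and T cell markers, in contrast, were lower in 6 of 6, with a median of -0.85 and the largest fall in Cd8a (-1.08). Alveolar type 2 markers were lower in 6 of 6, from 324222 to 324714 in sham to 207938 to 209425 after PNX, with the largest fall in Sftpa1 (-0.71) and the most counts in Sftpc (-0.62). Alveolar type 1 markers were lower in 5 of 6 and higher in 1 (Rtkn2 -0.99, Pdpn 0.39, and Ager, the most abundant, -0.38). All 6 proliferation genes were higher, with a median of 3.21, the largest rise in Cdk1 (3.41) and the most counts in Mki67 (2.91). The part of any of these cells in the changes of the 8 genes was not tested.

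**Figure D5:**
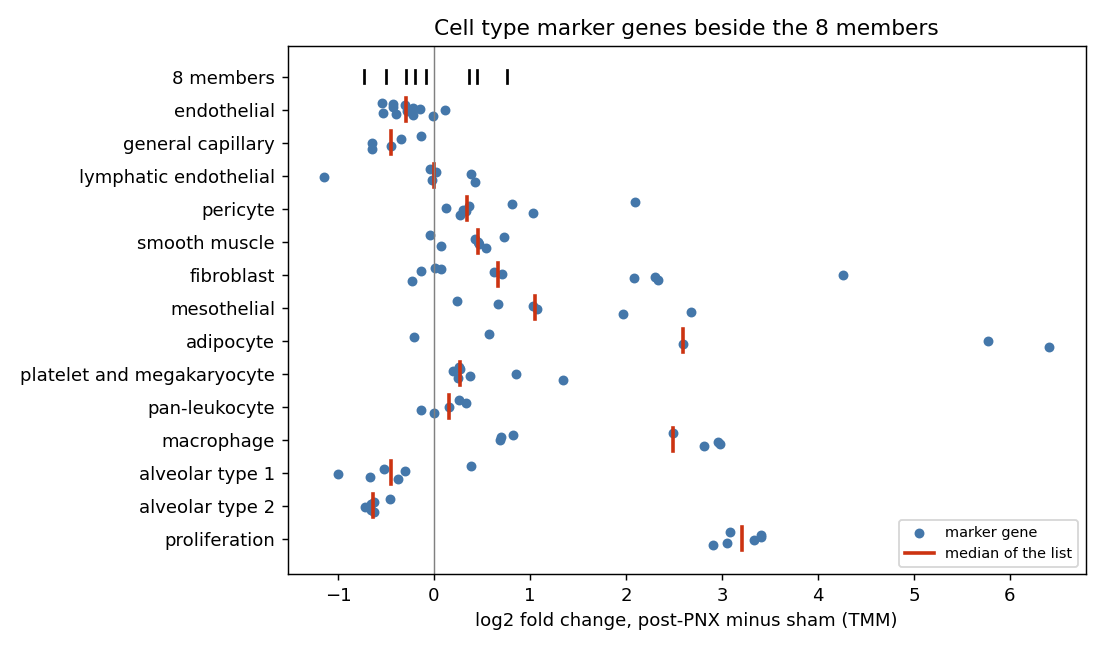
Log2 fold change (post-PNX minus sham, TMM, x axis) of marker genes of 14 lists, 1 blue point per gene tested and a red line at the list median, with the 8 members as black ticks in the top row. The 5 members that were lower lie in the range of the endothelial and capillary markers or just below it, and the 3 that were higher lie in the range of the pericyte and fibroblast markers. Ranges of other lists hold them too. Alveolar type 1 markers, from -0.99 to 0.39, span the 5 lower members, and mesothelial markers, from 0.24 to 2.68, span the 3 higher ones. The cell of origin was not tested.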

How the data were processed

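RNA of lung ECs was measured in 2 sham and 2 post-PNX libraries. The methods of the study give stranded mRNA libraries, paired-end sequencing and the mm10 genome. STAR is named in the submitters' processing notes, and the counting program is not given in the sources used here. The authors deposited whole-number read counts for 33068 RefSeq transcripts. They also deposited FPKM values, used here for levels between genes and ratios, and TPM values, which were not used. A read was counted for each transcript it overlapped, so each symbol was represented by its most counted transcript. This can hide shifts between transcripts.

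Counts were tested in R 4.3.3 with edgeR 4.0.16 (filterByExpr, TMM factors from 0.998 to 1.00, quasi-likelihood F test, no covariate, Benjamini-Hochberg adjustment over 16208 genes), after a test of the scripts on simulated data. A gene passed at an adjusted p under 0.01, and the fold threshold was a log2 fold change beyond 1. The standard error is the log2 fold change divided by the square root of F. Exact permutation tests used SciPy 1.17.1. Nothing says that the pools were prepared apart beyond holding different mice. The edgeR p-values rest on the spread between the 2 libraries of a group, estimated with information shared over genes. How much of that spread lies between mice cannot be told from these libraries. The counts of a group's libraries differed by a mean chi-square per gene of 1.77 in sham and 1.53 after PNX, against the 1 of counting noise alone. The libraries of a group were thus close to each other, and this value does not show that they vary as separate mice do. They were used as separate samples, so the edgeR p-values and the 57.1% of genes that passed are not a measure of variation between mice. Whether they shared an RNA pool at any step was not tested. The 8 genes and all lists were chosen with earlier results of these data known. From a list, the text names the largest rise and fall past the adjusted p (genes averaging 100 normalized counts or more), the most abundant gene, and all genes past the fold threshold where there are at most 4. Other names are marked. Results for 2 genes of the lists are not reported here.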

Additional observations from a re-analysis of the deposited data

How the results depend on the processing

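In all, 12 alternatives were run. They scaled libraries by the size factors of DESeq2, by total counts or by 12 endothelial markers, dropped the low-count filter or required a mean of 50 counts, used the Wald test of DESeq2 (version 1.42.0), a replicate block or counts summed over transcripts, or left out each library in turn. Of the 96 member results under these, 93 kept their direction and their side of the adjusted p. The 3 others all came from scaling to the endothelial markers, which by construction sets the mean of those genes level: Angpt1 (log2 fold change 0.086) and Tie1 (0.21) changed sign, and Angpt2 (-0.01) lost its call. That scaling also put 1 member beyond the fold threshold, Angptl4, against 0 with TMM, and split the 1446 genes called over all genes into 1373 higher and 73 lower, against 957 and 269 with TMM. DESeq2's Wald test called 831 higher and 180 lower, and it left 33.2% of genes with an adjusted p under 0.01 where edgeR gave 57.1%. With a library left out, the log2 fold change of Tek lay between -0.51 and -0.49 and that of Ptprb between -0.74 and -0.71, and the log2 ratio of Angpt2 to Angpt1 changed by between -0.15 and -0.04.

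The libraries share the numbers 1 and 2 across groups, but come from different mice, and deviations of same-numbered libraries correlated at 0.024 over genes. With the replicate number as a block, 1229 genes were called against 1226, all 1226 among them, and no member's call changed. With 2 pools a group, no exact test of a single value can go below 0.333.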

Other observations

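The genes whose values over the 4 libraries were most like those of Tek were Gpr146, Sgpp2 and 4632428N05Rik, by the Euclidean distance of log2 normalized counts centred on each gene's mean, over 13402 genes averaging 100 normalized counts or more. Gpr146, a G protein-coupled receptor gene, was at a distance of 0.0046 and had 10215 normalized counts in sham and 7226 after PNX. For Angpt1 the nearest were Nipal2, Kpna4 and C330007P06Rik, and for Angpt2 they were Numa1, Slc22a3 and Snx21. With 4 libraries in 2 groups many genes have nearly the same pattern: 485 genes lay within a distance of 0.1 of Tek, 1034 of Angpt2 and 1615 of Angpt1. These are descriptions of 4 libraries and carry no test.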
